A study of Sus scrofa with 12 samples.

Results

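The genes of this report code for the axoneme, the microtubule core of the sperm flagellum and of motile cilia. They were the rows whose gene symbol begins with DNAH, DNAI, DNAL, DNAAF, DRC, ODAD, RSPH, CFAP or TEKT followed by a digit or a capital letter. The symbols chose 56 of the 30640 gene rows, with no use of measured values. Another 12 rows carry an Ensembl identifier in the files and such a symbol only in a table of gene names, and their values are given apart. The groups were testis and epididymis of untreated BMI boars (an inbred line of Banna mini-pigs) of adult age, with 5 short-read RNA-sequencing libraries per tissue. The labelled age is 12 months, but in the headers of the files the boars of replicates 1 to 5 are 12, 12, 11, 17 and 11 months old. The headers carry the same numbers (21, 23, 25, 27 and 29) in both tissues. They are read here as boar numbers, so each is taken to give a testis and an epididymis library. The labels do not say which segment of the epididymis was taken, and their extraction text speaks of 5 mixed samples per tissue. That text may refer to the pooled long-read samples, since each short-read header carries only 1 such boar number. The labels do not say so.

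In an axoneme, doublet microtubules carry rows of dynein motors, the outer and inner arms, which slide the doublets past each other. Radial spokes, the central apparatus and the nexin-dynein regulatory complex turn this sliding into a bend, and tektins and other proteins line the inside of the doublets. Assembly factors fold the dynein arms in the cytoplasm before they are carried to the axoneme. In testis, germ cells that build the flagellum transcribe many of these genes. The duct of the epididymis holds stored sperm and is lined by cells with immotile microvilli called stereocilia, while motile cilia stand on cells of the efferent ducts that lead into it.

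Libraries held 18715154 to 30211957 reads in testis and 17980578 to 21937263 in epididymis, and a count of 0 allows up to 3 reads, or 0.0993 to 0.167 CPM (counts scaled to a library total of 1000000 reads). Intervals and floors of this kind cover counting error only. Sums of the markers of each tissue were highest in the tissue so labelled, but not every marker was. Haploid germ cell markers (21 genes in the files) summed to 19533 to 24811 CPM in testis and 137 to 739.7 CPM in epididymis, with IZUMO1 at 0 in every epididymis library. Principal cell markers of the epididymis (8 genes in the files) summed to 1802 to 2998 CPM in testis and 8717 to 34331 CPM in epididymis. Of these, 7 were called higher in epididymis and 1, CLU, was not, with 213 CPM in epididymis replicate 5 against 1670 to 2942 CPM in testis. Of 6 tested clear or basal cell markers, 4 were called higher in epididymis, all of them basal cell markers (KRT5, KRT14, TP63 and CLDN1). The 2 not called were the clear cell markers CA2 and ATP6V1B1. CA2 had 40.7 to 49.1 CPM in testis and 1.37 to 130 CPM in epididymis. ATP6V1B1 had 1.23 to 1.93 CPM in testis, 9.39 CPM in epididymis replicate 3 and 0 CPM in epididymis replicates 1, 2, 4 and 5. 2 libraries stood apart from the others of their tissue. Testis replicate 4 held 7.75 CPM of the signal recognition particle RNA, against 7888 to 9134 CPM in the other testis libraries. The epididymis libraries held 1.00 to 8.27 CPM of that RNA, so in this row testis replicate 4 was like them. For the high level in the other testis libraries, tissue and library content cannot be told apart. Epididymis replicate 3 held 290.1 CPM of PRM1, the sperm protamine, against 10.5 to 37.0 CPM in the other epididymis libraries. Replicate 3 also differed from them in markers of principal and clear cells, given below. Since these are bulk tissues, fewer cells of a type and less RNA per cell cannot be told apart in any value below.

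Most axoneme genes were far higher in testis, but 10 of the 53 tested were not called so, among them the dynein genes DNAL1 and DNAH9. The 56 genes together took 0.610% to 0.694% of the reads of each testis library and 0.0517% to 0.0942% of each epididymis library. Of the 56, 53 passed the filter on low counts. In edgeR's quasi-likelihood test with adjustment over all 17225 genes tested, 74.4% of all genes were called in either direction. Of the axoneme genes, 43 were higher in testis, where 36.6% of all tested genes were. Another 2, DNAL1 and RSPH4A, were higher in epididymis (37.8% of all tested genes), and 8 were not called. The median log2 fold change, testis over epididymis, was 3.80, against -0.07 over all tested genes. Beyond a 2-fold difference, 39 were called higher in testis (27.3% of all tested genes) and 1, DNAL1, higher in epididymis (23.4%). For 41 genes the lowest testis library exceeded the highest epididymis library (32.1% of all tested genes), and for 1, DNAL1, the highest testis library was below the lowest epididymis library (29.3%). The genes too low to test were CFAP126 (0.0821 to 0.534 CPM in testis, 0.222 to 0.657 CPM in epididymis), CFAP73 (0.107 to 0.740 CPM in testis, 0.204 to 0.723 CPM in epididymis) and CFAP157 (at most 0.123 CPM in testis and 0.274 CPM in epididymis). No row carried an ODAD symbol among the 56, or the symbol DNAH8.

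**Figure D1:**
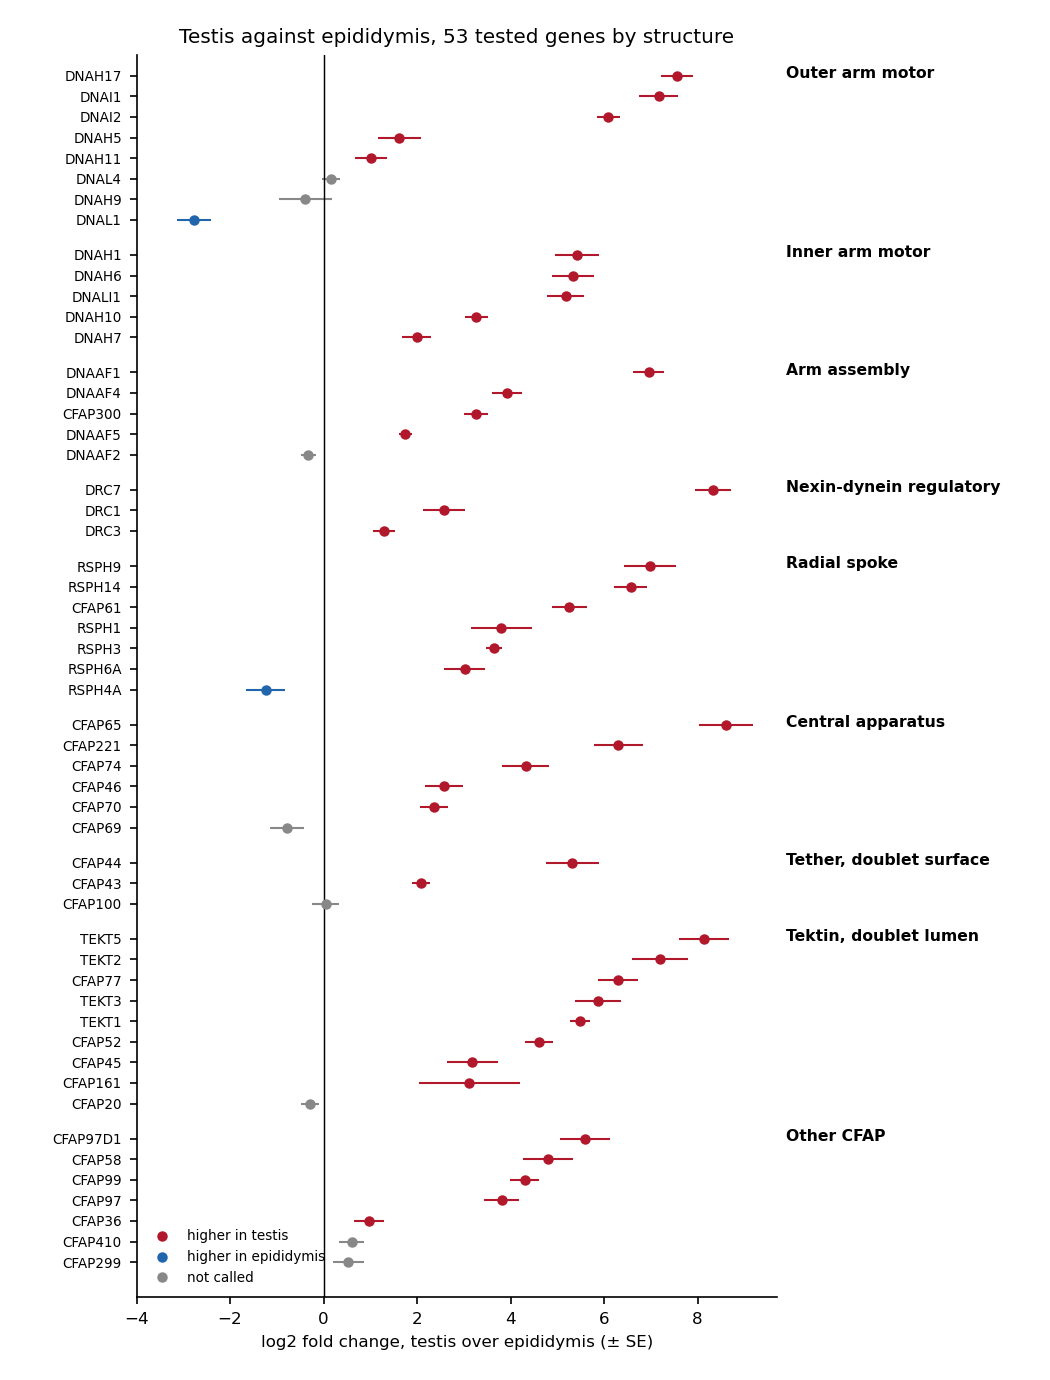
Log2 fold changes, testis over epididymis, with approximate standard errors for the 53 tested genes, grouped by axonemal structure and coloured by the edgeR call. Most points lie right of 0, up to 8.61 for CFAP65. Among the genes shown, each structure except the inner arm motors and the nexin-dynein regulatory complex also has one not called or higher in epididymis.

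The outer dynein arm was the only structure of the 9 with genes called in each direction and genes not called. Of its 8 motor genes, 5 were higher in testis, 1 was higher in epididymis and 2 were not called. DNAH17, the outer arm heavy chain of sperm in human and mouse, had 1225, 1044, 1389, 529.8 and 1231 CPM in testis libraries 1 to 5, against 5.24, 5.86, 7.70, 5.34 and 5.14 CPM in epididymis libraries 1 to 5. The tissues did not overlap, and DNAH17 was 188-fold higher in testis (log2 7.56 ± 0.34, edgeR adjusted p = 1.5e-08). DNAH9, a heavy chain of the outer arms of airway cilia, had 99.96, 81.2, 100, 31.0 and 91.1 CPM in testis libraries 1 to 5, against 111, 125, 21.7, 37.8 and 229.7 CPM in epididymis libraries 1 to 5. The tissues overlapped for DNAH9, and no difference was called (log2 -0.39 ± 0.57, edgeR adjusted p = 0.546). Testis replicate 4 and epididymis replicates 3 and 4 held the lowest DNAH9 levels, and epididymis replicate 5 the highest of all 10 libraries. Without epididymis replicates 3 and 4, DNAH9 was called higher in epididymis (log2 -0.996, edgeR adjusted p = 0.028), and without epididymis replicate 5 its sign turned (log2 0.11, edgeR adjusted p = 0.861).

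The other outer arm heavy chains with a row under their symbol, DNAH5 and DNAH11, were low in both tissues. DNAH5, the partner of DNAH9 or DNAH11 in airway cilia, had 8.61, 16.5, 15.8, 13.6 and 19.0 CPM in testis libraries 1 to 5, against 3.31, 4.05, 1.46, 11.9 and 3.97 CPM in epididymis libraries 1 to 5. Epididymis replicate 4 reached the range of the testis libraries, and DNAH5 was called higher in testis (log2 1.62 ± 0.46, edgeR adjusted p = 0.00686), except when only replicate 4 of testis was kept (log2 1.58, edgeR adjusted p = 0.205). DNAH11, the other airway heavy chain, had 2.77, 2.88, 3.89, 1.55 and 2.55 CPM in testis libraries 1 to 5, against 1.37, 1.86, 0.957, 1.84 and 0.881 CPM in epididymis libraries 1 to 5. DNAH11 was called higher in testis with overlapping libraries (log2 1.01 ± 0.35, edgeR adjusted p = 0.0188). The boar as a block ended this call (edgeR adjusted p = 0.0595), and so did keeping only replicate 4 of testis (log2 0.27, edgeR adjusted p = 0.779).

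Among the outer arm heavy chains with a row under their symbol, the one that made up most of the signal differed between the tissues. DNAH8, another outer arm heavy chain, has no such row and is missing from the sums below. Divided by gene length, DNAH17 made up 91.8% ± 0.36 of the summed level of DNAH5, DNAH9, DNAH11 and DNAH17 in testis, against 8.89% ± 8.97 in epididymis (SD over 5 libraries per tissue). DNAH9 made up 6.73% ± 0.80 in testis and 83.3% ± 13.7 in epididymis. The DNAH17 share was 91.3% to 92.2% in the testis libraries, replicate 4 included, and 2.13% to 24.2% in the epididymis libraries, where the highest share was that of replicate 3. For each of the 2 shares an exact two-sided permutation test gave p = 0.007937, the smallest possible for 5 against 5 libraries. Exchanging tissues only within boars, the exact permutation test gave p = 0.0625, the smallest possible for 5 pairs. The shares were chosen for testing after the levels had been seen, so these p-values only restate that the shares of the tissues did not overlap. The 2 shares are the main parts of the same sum, so they are not independent results.

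Both intermediate chains, which anchor the heavy chains to the doublet, were higher in testis. DNAI1 had 117, 107, 118, 81.6 and 120.3 CPM in testis libraries 1 to 5, against 0.509, 1.64, 0.410, 0.723 and 0.539 CPM in epididymis libraries 1 to 5, a difference of log2 7.17 ± 0.41, edgeR adjusted p = 5.9e-08. Its partner DNAI2 had 243, 223, 185, 214 and 182 CPM in testis libraries 1 to 5, against 3.36, 2.30, 4.47, 2.28 and 3.08 CPM in epididymis libraries 1 to 5, a difference of log2 6.10 ± 0.25, edgeR adjusted p = 9.7e-09. In epididymis, DNAH9 thus stood at 105 ± 82.8 CPM beside 0.765 ± 0.504 CPM of DNAI1 and 3.10 ± 0.90 CPM of DNAI2. Per kilobase of gene length these are 7.51, 0.303 and 0.612 CPM (RPKM), so the order of the levels is the same on that scale.

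Neither of the light chains, small proteins bound to the motors, was called higher in testis. DNAL1, the outer arm light chain that binds the motor domain of a heavy chain in Chlamydomonas, had 18.6, 18.4, 18.1, 33.6 and 22 CPM in testis libraries 1 to 5, against 196, 137, 53.9, 238 and 139 CPM in epididymis libraries 1 to 5. No library of either tissue reached the other's range, and DNAL1 was 6.83-fold higher in epididymis (log2 -2.77 ± 0.36, edgeR adjusted p = 2.2e-05). The lowest DNAL1 level in epididymis was that of replicate 3, and the highest in testis that of replicate 4. With only replicate 4 of testis kept, no call was made (log2 -2.09, edgeR adjusted p = 0.0905). At 25.6 RPKM, DNAL1 had the highest level per length of the 56 genes in epididymis, against 3.71 RPKM in testis. DNAL4, a light chain related to that of cytoplasmic dynein, had 36.7, 27.5, 39.9, 36.1 and 32.8 CPM in testis libraries 1 to 5, against 38.2, 34.2, 28.4, 26.3 and 29.1 CPM in epididymis libraries 1 to 5. Its libraries overlapped, with no call (log2 0.16 ± 0.18, edgeR adjusted p = 0.439).

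**Figure D2:**
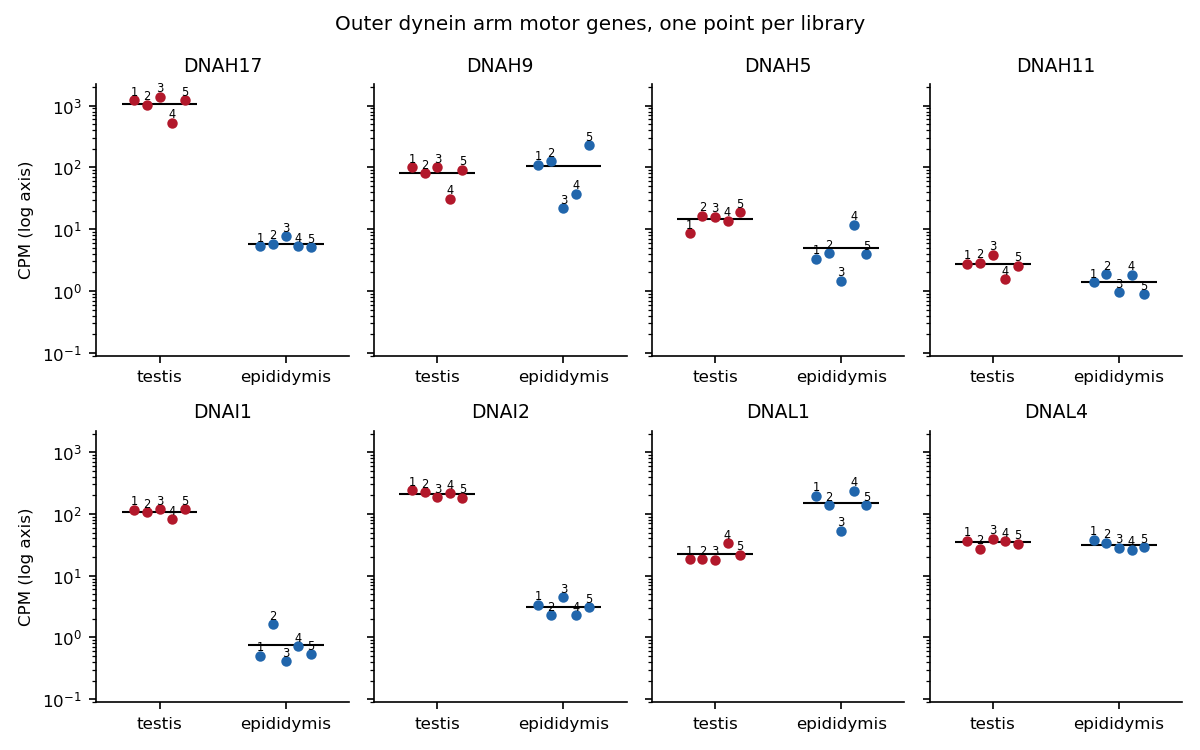
CPM of the 8 outer dynein arm motor genes on a log axis, with 1 point per library (numbered by replicate) and a line at the mean, testis left and epididymis right. DNAH17, DNAI1 and DNAI2 lie far higher in testis with no overlap, DNAH9 and DNAL4 overlap, and DNAL1 is higher in epididymis.

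Inner arm motors were all higher in testis. The 5 tested genes had log2 fold changes of 1.99 to 5.43 with no overlap of libraries. DNAH1, a heavy chain needed for the sperm flagellum in human and mouse, had 496, 469, 505, 184 and 469.9 CPM in testis libraries 1 to 5, against 11.098, 9.96, 2.96, 12.1 and 13.9 CPM in epididymis libraries 1 to 5. Testis replicate 4 held less than any other testis library and still more than any epididymis library (log2 5.43 ± 0.47, edgeR adjusted p = 1.0e-06). DNAH10, another inner arm heavy chain, had 168, 138, 128, 115 and 169 CPM in testis libraries 1 to 5, against 10.8, 11.9, 18.8, 23.7 and 11.2 CPM in epididymis libraries 1 to 5. Its tissues did not overlap, although every epididymis library held more than 10 CPM (log2 3.27 ± 0.25, edgeR adjusted p = 3.4e-07). DNAH7, a heavy chain of single-headed inner arms, had 49.6 ± 6.01 CPM in testis and 12.5 ± 6.78 CPM in epididymis, where replicate 5 reached 24.4 CPM. DNAH6 had 80.5 ± 8.21 CPM in testis and 2.04 ± 1.61 CPM in epididymis, and DNALI1, a light intermediate chain, 40.3 ± 12.3 CPM in testis and 1.11 ± 0.575 CPM in epididymis.

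Among the 12 rows named by the table, 4 more dynein heavy chains were higher in testis. DNAH2 had 138 ± 32.8 CPM in testis and 2.47 ± 2.62 CPM in epididymis (log2 5.83, and 6.71 without epididymis replicate 3), and DNAH12 had 67.5 ± 8.53 CPM in testis and 1.84 ± 0.57 CPM in epididymis. DNAH3 had 39.2 ± 6.09 CPM in testis and 4.4 ± 1.36 CPM in epididymis, and DNAH14 had 18.9 ± 1.09 CPM in testis and 2.0 ± 0.87 CPM in epididymis. In all, 10 of the 12 were higher in testis and none was called higher in epididymis. CFAP298, an assembly factor, was tested and not called (63.0 ± 39.6 CPM in testis and 42.1 ± 6.33 CPM in epididymis), and DNAAF3 had 0 reads in every library.

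Of 5 assembly factors, 4 were higher in testis and 1 was not called. DNAAF1, which is needed to preassemble the arms, had 978, 733, 803, 854 and 796 CPM in testis libraries 1 to 5, against 4.99, 4.38, 12.1, 8.01 and 4.95 CPM in epididymis libraries 1 to 5. It had the highest level per length of all 56 genes in testis, 357 ± 39.4 RPKM, and the tissues did not overlap (log2 6.95 ± 0.33, edgeR adjusted p = 1.9e-08). DNAAF5, a HEAT-repeat assembly factor, had 83.9, 89.5, 93.0, 92.9 and 94.5 CPM in testis libraries 1 to 5, against 25.2, 24.6, 33.0, 26.1 and 27.9 CPM in epididymis libraries 1 to 5. Its epididymis mean was 30.2% of its testis mean, and the tissues did not overlap (log2 1.75 ± 0.15, edgeR adjusted p = 7.2e-07). DNAAF2, also called kintoun, a cochaperone of dynein folding, had 43.9, 31.2, 32.5, 34.6 and 35.8 CPM in testis libraries 1 to 5, against 44.3, 41.3, 44.3, 46.8 and 48.8 CPM in epididymis libraries 1 to 5. Testis replicate 1 lay inside the epididymis range, and DNAAF2 was not called (log2 -0.32 ± 0.15, edgeR adjusted p = 0.0735). CFAP300 had 39.3 ± 6.46 CPM in testis and 4.16 ± 1.62 CPM in epididymis, and DNAAF4 had 6.39 ± 1.44 CPM in testis and 0.420 ± 0.106 CPM in epididymis, both called higher in testis.

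The nexin-dynein regulatory complex links neighbouring doublets, and its 3 genes with a DRC symbol were higher in testis by very different amounts. Genes of the complex under other symbols, such as GAS8 (not called) and TCTE1 (higher in testis), are given below. DRC7 had 175, 162, 176, 110.2 and 159 CPM in testis libraries 1 to 5, against 0.407, 0.274, 0.957, 0.556 and 0.245 CPM in epididymis libraries 1 to 5, a 322-fold difference (log2 8.33 ± 0.38, edgeR adjusted p = 1.6e-08). DRC1, a scaffold of the complex, had 50.9, 50.6, 41.9, 83.2 and 53 CPM in testis libraries 1 to 5, against 10.5, 8.43, 2.74, 5.56 and 19.1 CPM in epididymis libraries 1 to 5. The tissues did not overlap, and epididymis replicate 3 was the lowest and replicate 5 the highest (log2 2.58 ± 0.46, edgeR adjusted p = 2.8e-04). DRC3 had 96.1, 86.3, 97, 80.4 and 96.5 CPM in testis libraries 1 to 5, against 47.0, 52.7, 33.9, 24.2 and 30.4 CPM in epididymis libraries 1 to 5, the smallest difference of the 3 and not past the 2-fold test (log2 1.29 ± 0.24, edgeR adjusted p = 3.6e-04). DRC3 was not called with only replicate 4 of testis kept (log2 1.19, edgeR adjusted p = 0.0789).

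Radial spoke genes held both directions. RSPH9, a protein of the spoke head, had 92.4, 94.6, 94.6, 105 and 95.8 CPM in testis libraries 1 to 5, against 0.407, 0.219, 2.19, 0.667 and 0.343 CPM in epididymis libraries 1 to 5. The highest epididymis library was replicate 3, and all testis libraries lay within a narrow range (log2 6.99 ± 0.55, edgeR adjusted p = 5.1e-07). Without epididymis replicate 3 its log2 fold change was 7.87. RSPH3, a stalk protein, had 88.5, 119, 91.7, 100.2 and 86.7 CPM in testis libraries 1 to 5, against 8.35, 7.56, 8.39, 8.56 and 6.71 CPM in epididymis libraries 1 to 5, with epididymis libraries close to each other (log2 3.65 ± 0.18, edgeR adjusted p = 1.9e-08). RSPH4A and RSPH6A are related spoke head proteins, of motile cilia and of sperm in mouse. RSPH4A was higher in epididymis at a low level, with 1.28, 1.06, 1.71, 2.19 and 0.411 CPM in testis libraries 1 to 5, against 3.51, 2.08, 2.37, 4.78 and 3.13 CPM in epididymis libraries 1 to 5. Testis replicate 4 lay above epididymis replicate 2, so the tissues overlapped (log2 -1.23 ± 0.42, edgeR adjusted p = 0.0177). RSPH4A was not called without testis replicate 1 (log2 -1.16, edgeR adjusted p = 0.0536) or with only replicate 4 of testis kept (log2 -0.43, edgeR adjusted p = 0.636). In the same libraries RSPH6A had 101 ± 6.67 CPM in testis and 12.6 ± 6.49 CPM in epididymis, so it stood above RSPH4A in both tissues on average, also per length (21.8 and 0.442 RPKM in testis for RSPH6A and RSPH4A, 2.71 and 1.05 RPKM in epididymis). In epididymis replicate 3, the order turned, with 2.10 CPM of RSPH6A and 2.37 CPM of RSPH4A. The other spoke genes, RSPH1, RSPH14 and CFAP61, were higher in testis with log2 fold changes of 3.80 to 6.57. The 3.80 of RSPH1 was 2.78 without testis replicate 4 (edgeR adjusted p = 4.4e-05). The span of RSPH4A overlaps another RefSeq gene, ZUFSP, and that of RSPH6A overlaps SYMPK. The strand setting of the counting is not given, so reads in the shared parts cannot be told apart. This limit also holds for the order of RSPH4A and RSPH6A.

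Of 6 central apparatus genes, 5 were higher in testis and 1 was not called. CFAP65, mutated in human male infertility with malformed flagella, had 262, 244, 308, 193 and 276 CPM in testis libraries 1 to 5, against 0.0509, 0.383, 1.46, 0.779 and 0.637 CPM in epididymis libraries 1 to 5. It had the largest fold change of the 53 tested genes (log2 8.61 ± 0.58, edgeR adjusted p = 1.5e-07). CFAP70 had 194, 146, 148, 239 and 181 CPM in testis libraries 1 to 5, against 37.0, 45.7, 14.5, 37.8 and 41.6 CPM in epididymis libraries 1 to 5, with the lowest epididymis level in replicate 3 (log2 2.37 ± 0.30, edgeR adjusted p = 1.9e-05). CFAP69, a protein of the sperm flagellum that is also found in olfactory cilia of mouse, had 27.3, 22.9, 24.3, 41.4 and 24.6 CPM in testis libraries 1 to 5, against 41.0, 26.8, 23.6, 54.4 and 97 CPM in epididymis libraries 1 to 5. The tissues overlapped, and the epididymis libraries spanned a wider range than the testis libraries (log2 -0.78 ± 0.37, edgeR adjusted p = 0.0717). Leaving out testis replicate 4 or epididymis replicate 2 or 3 gave a call higher in epididymis (log2 -0.93 to -0.98, edgeR adjusted p = 0.017 to 0.049).

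Of the tether and doublet-surface genes, CFAP43 and CFAP44, which hold the head of an inner arm, were higher in testis. CFAP44 had 39.8, 38.5, 37.0, 64.5 and 39.7 CPM in testis libraries 1 to 5, against 0.509, 0.821, 3.24, 0.389 and 0.539 CPM in epididymis libraries 1 to 5, with replicate 3 the highest in epididymis (log2 5.32 ± 0.57, edgeR adjusted p = 5.5e-06). Without that library its log2 fold change was 6.25. CFAP43 had 26.7 ± 2.02 CPM in testis and 6.40 ± 1.35 CPM in epididymis. CFAP100, part of a modifier of inner arms in Chlamydomonas, had 35.1, 38.2, 32.5, 45.5 and 37.6 CPM in testis libraries 1 to 5, against 44.5, 56.6, 16.3, 35.5 and 30.3 CPM in epididymis libraries 1 to 5. It had the smallest difference of all 53 genes, and its sign turned when testis replicate 4 or epididymis replicate 3, 4 or 5 was left out (log2 0.05 ± 0.29, edgeR adjusted p = 0.886).

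Tektins and the proteins inside the doublets were higher in testis in 8 of 9 cases. TEKT2, a filament protein needed for sperm motility in mouse, had 397, 367, 391, 496 and 389 CPM in testis libraries 1 to 5, against 1.58, 0.821, 7.57, 2.95 and 1.32 CPM in epididymis libraries 1 to 5. It held 276 ± 34.2 RPKM in testis, the highest level per length after DNAAF1 (log2 7.20 ± 0.59, edgeR adjusted p = 6.8e-07), and its log2 fold change was 7.95 without epididymis replicate 3. TEKT5 had 144, 151, 155, 153 and 159 CPM in testis libraries 1 to 5, against 0.0509, 0.383, 1.19, 0.834 and 0.294 CPM in epididymis libraries 1 to 5, with at most 1.19 CPM in any epididymis library (log2 8.13 ± 0.53, edgeR adjusted p = 1.3e-07). TEKT1 had 147 ± 10.1 CPM in testis and 3.36 ± 0.94 CPM in epididymis, and TEKT3 had 232 ± 47.9 CPM in testis and 4.11 ± 3.09 CPM in epididymis. CFAP161 was called on 11.6 ± 2.09 CPM in testis and 1.36 ± 2.81 CPM in epididymis, where replicate 3 held 6.38 CPM and the others at most 0.222 CPM (log2 3.12 ± 1.08, edgeR adjusted p = 0.0198). Its log2 fold change was 6.70 without epididymis replicate 3 (edgeR adjusted p = 3.1e-08), and it was not called with only replicate 4 of testis kept (log2 3.62, edgeR adjusted p = 0.197). CFAP20, which sits at the inner junction of the doublet and is conserved beyond motile cilia, had 20.9, 19.3, 16, 29.8 and 23.6 CPM in testis libraries 1 to 5, against 26.4, 21.4, 25.5, 30.8 and 30.9 CPM in epididymis libraries 1 to 5. Its libraries overlapped and it was not called (log2 -0.29 ± 0.19, edgeR adjusted p = 0.197), but it was called higher in epididymis without testis replicate 4 (log2 -0.41, edgeR adjusted p = 0.048).

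The remaining CFAP genes were mixed. CFAP97D1 had 59.9, 54.1, 54.6, 95.5 and 61.8 CPM in testis libraries 1 to 5, against 0.458, 0.931, 3.74, 0.890 and 0.783 CPM in epididymis libraries 1 to 5, with no overlap (log2 5.60 ± 0.53, edgeR adjusted p = 2.2e-06). Without epididymis replicate 3 its log2 fold change was 6.40. CFAP97 had 109, 94.2, 104, 185 and 108 CPM in testis libraries 1 to 5, against 5.96, 3.72, 8.43, 17.1 and 8.72 CPM in epididymis libraries 1 to 5, with no overlap either (log2 3.81 ± 0.37, edgeR adjusted p = 2.4e-06). CFAP410, a protein of the ciliary base, had 46.5, 43.9, 44.0, 63.3 and 43.0 CPM in testis libraries 1 to 5, against 33.6, 53.2, 24.3, 24.5 and 23.1 CPM in epididymis libraries 1 to 5. It was not called (log2 0.60 ± 0.26, edgeR adjusted p = 0.0548), although it was with DESeq2 (log2 0.72, adjusted p = 0.021), with DESeq2's size factors, with library totals alone, with the boar as a block (log2 0.69, edgeR adjusted p = 0.045) and without testis replicate 3 or epididymis replicate 2. CFAP299 had 6.35, 4.93, 5.83, 13.8 and 6.12 CPM in testis libraries 1 to 5, against 3.92, 4.71, 8.39, 3.67 and 5.09 CPM in epididymis libraries 1 to 5, overlapping and not called (log2 0.53 ± 0.33, edgeR adjusted p = 0.168). CFAP36, which binds the small GTPase ARL3, was called higher in testis (33.1 ± 21.2 CPM in testis against 16.9 ± 2.55 CPM in epididymis, log2 0.97 ± 0.33, edgeR adjusted p = 0.0175), but not with the boar as a block (edgeR adjusted p = 0.057). Testis replicate 4 held 70.8 CPM of it and the other testis libraries 21.2 to 26.3 CPM.

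In the epididymis, 34 of the 53 tested genes (64.2%) kept at least 1 CPM in each of the 5 libraries, against 74.5% of all tested genes. At least 5 CPM was kept by 17 (32.1%), against 57.4% of all tested genes. The 34 covered every structure, with 6 outer arm motors, 3 inner arm motors, 4 assembly factors, 2 genes of the regulatory complex, 4 spoke genes, 3 central apparatus genes, 2 tether genes, 5 tektin or doublet genes and 5 other CFAP genes. The highest mean levels in epididymis were those of DNAL1 (153 CPM), DNAH9 (105 CPM), CFAP69 (48.6 CPM), DNAAF2 (45.1 CPM), DRC3 (37.6 CPM), CFAP100 (36.6 CPM), CFAP70 (35.3 CPM) and CFAP410 (31.7 CPM). DNAL1, RSPH4A, DNAAF2, CFAP20, CFAP69 and DNAH9 had higher means in epididymis than in testis, and only DNAL1 and RSPH4A were called.

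Germ cell RNA in the epididymis libraries was measured beside these levels. As a percentage of its testis mean, the median haploid marker stood at 0.195%, 0.341%, 2.7%, 0.623% and 0.353% in epididymis replicates 1 to 5, and the highest of the 21 at 8.26%, 5.75%, 16.1%, 12.1% and 5.0%. The highest was GAPDHS in replicates 1, 2 and 4, SPACA1 in replicate 3 and CAPZA3 in replicate 5. GAPDHS was lowest in replicate 3 (23.1 CPM, against 31.5 to 86.2 CPM in the other epididymis libraries), where 18 of the 21 markers were highest. The median tested axoneme gene stood at 6.08%, 7.14%, 6.62%, 6.95% and 6.49%. In every epididymis library, 16 of the 53 tested genes lay above every haploid marker. These were DNAL1, RSPH4A, CFAP69, DNAH9, DNAAF2, CFAP20, CFAP100, DNAL4, CFAP410, CFAP299, DRC3, DNAH11, CFAP36, DNAAF5, CFAP43 and DNAH7. Of the 34 kept genes, 15 were among them and 19 were not. DNAH17, DNAAF1, TEKT3, DNAI2, TEKT1 and DNAH1 kept 1 CPM in every library with 0.474% to 3.43% of their testis mean, and CFAP61 with 1.64% to 3.80%. These values lie within the range of the haploid markers, which starts at 0%. In epididymis replicate 3, DNAH17, DNAAF1, TEKT3, DNAI2 and TEKT1 were highest, and DNAH1 and CFAP61 were lowest. The part of germ cell RNA in the epididymis levels of the kept genes was not tested.

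**Figure D3:**
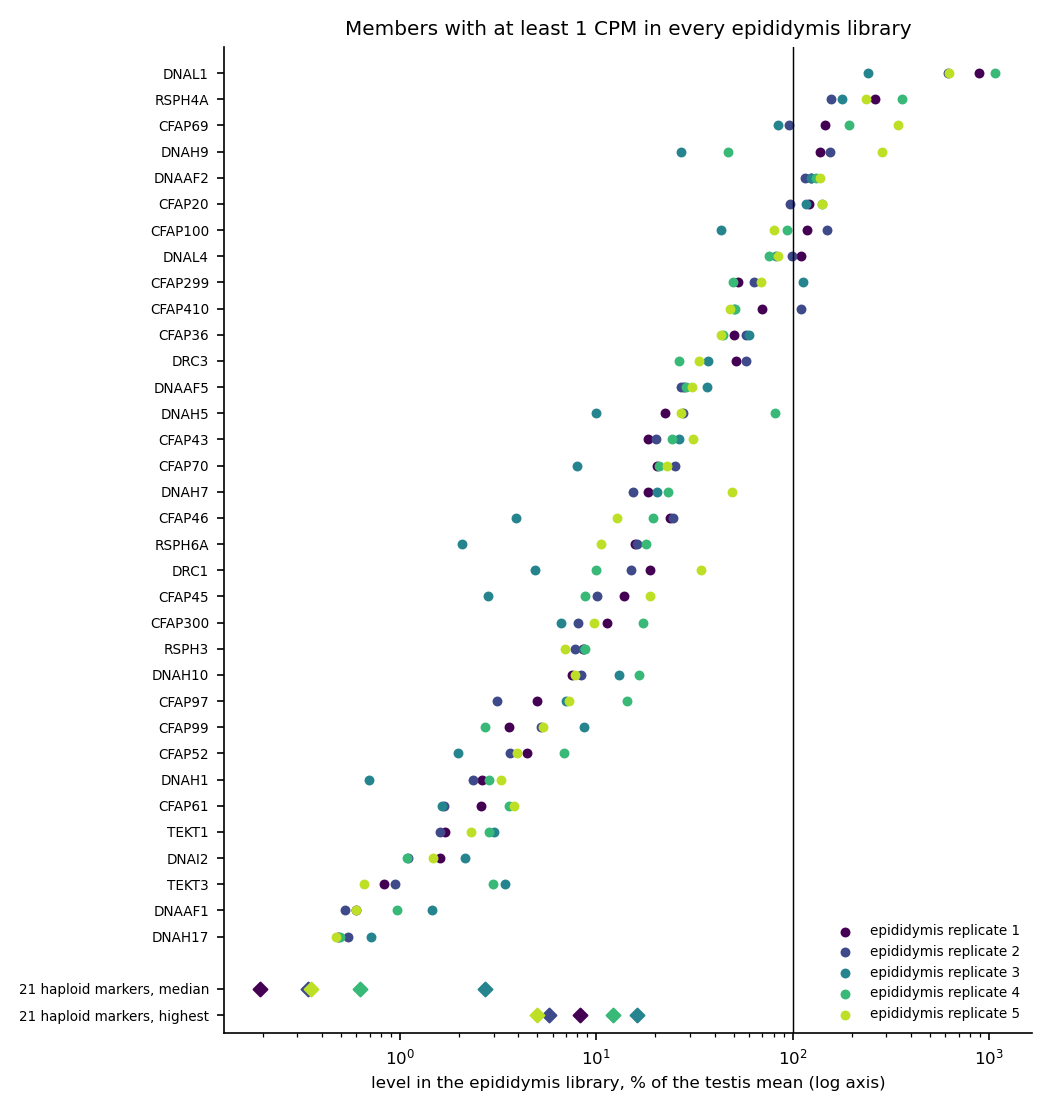
Level of the 34 kept genes in each epididymis library as a percentage of the gene's testis mean, on a log axis with a line at 100%. The diamonds below give the median and the highest of 21 haploid germ cell markers in each library. The medians run from 0.195% to 2.7% and the highest from 5.0% to 16.1%. Of the genes, 15 lie right of the diamonds in every library, a count not made over all tested genes.

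Epididymis replicate 3 was highest for some kept genes and lowest for others. Of the 34, 9 were highest in replicate 3, among them TEKT3 and DNAAF1, and 14 were lowest there. Over all tested genes, 31.9% were highest and 19.7% lowest in replicate 3, and 18 of the 21 haploid markers were highest there. The 14 were DNAL1, DNAH9, DNAH5, DNAH1, CFAP70, CFAP46, CFAP69, CFAP61, CFAP52, CFAP45, CFAP100, CFAP300, DRC1 and RSPH6A. CFAP46, a central apparatus gene, stood at 6.20 CPM there, against 20.4 to 39.1 CPM in the other epididymis libraries. CFAP45 stood at 2.51 CPM, against 7.84 to 16.7 CPM, and RSPH6A at 2.10 CPM, against 10.7 to 18.1 CPM. Markers of the duct's own cells also stood apart in replicate 3. GPX5, a secreted protein of principal cells, had 2577 CPM there, against 1.56 to 52.7 CPM in the other epididymis libraries, whereas CES5A had 6.11 CPM there, against 1425 to 5415 CPM, and CRISP1 53.2 CPM, against 1382 to 2680 CPM. Of 8 principal cell markers, 3 were above and 3 below every other epididymis library. Of 9 clear or basal cell markers, 6 were above, such as FOXI1 (10.5 CPM against at most 0.111 CPM) and CA2 (130 CPM against 1.37 to 2.84 CPM), and 1 was below. The part of duct region or cell makeup in the axoneme levels was not tested. FOXJ1, the transcription factor that switches on motile cilia genes, had 5.04, 3.23, 1.14, 4.56 and 10.8 CPM in epididymis replicates 1 to 5. FOXJ1 is 1 of 15 listed markers of multiciliated cells, of which 4 were above and 4 below every other epididymis library in replicate 3, RFX3 (7.20 CPM) and TP73 (1.87 CPM) among the higher. Their epididymis levels differed widely, with 11.6 to 23.5 CPM of TPPP3, 7.20 to 22.1 CPM of LRRC46, 4.07 to 13.1 CPM of RFX2 and 2.01 to 2.41 CPM of DEUP1. FAM183A (at most 0.274 CPM), CCNO (at most 0.383 CPM), CDC20B (at most 0.147 CPM) and SNTN (1 read in all libraries) were near 0. The list summed to 883 to 1144 CPM in testis and 53.2 to 70.5 CPM in epididymis, where replicate 4 was lowest and replicate 3 held 57.6 CPM. Of it, 8 genes were higher in testis, 1 (TPPP3) was higher in epididymis and 4 were not called, and the part of multiciliated cells in the axoneme levels was not tested.

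**Figure D4:**
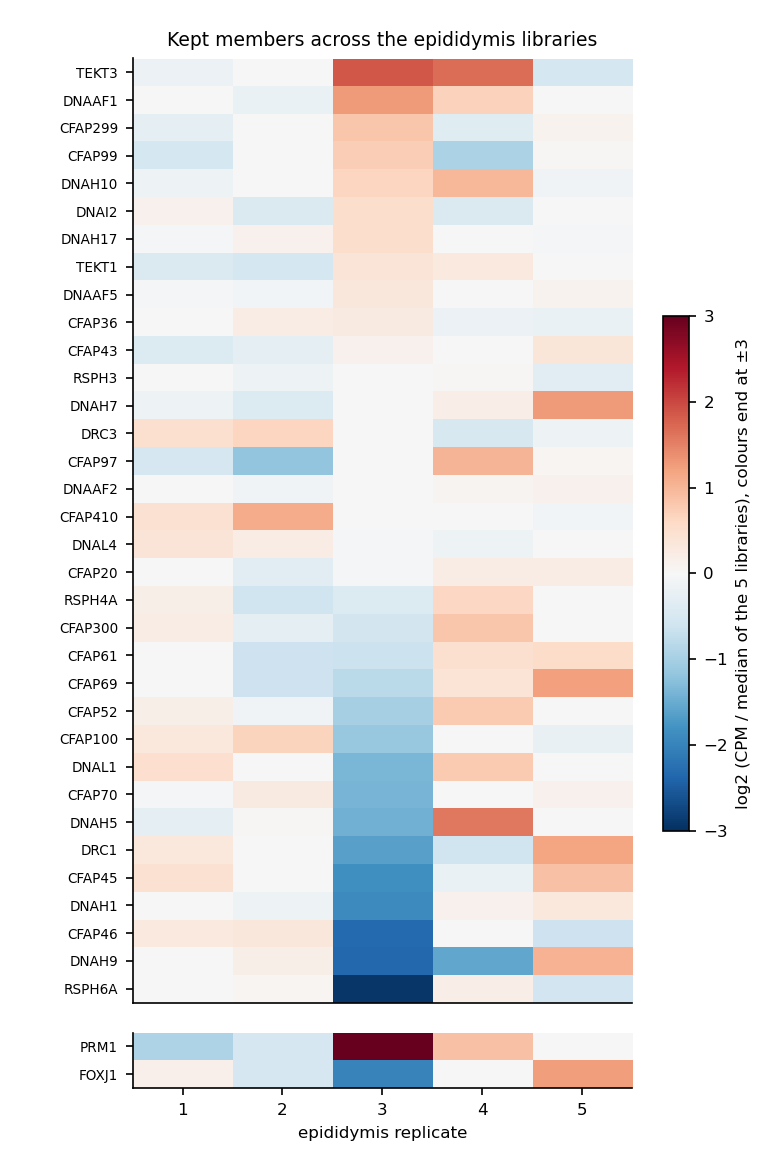
Log2 ratio of each epididymis library to the median of the 5 for the 34 kept genes, ordered by replicate 3, with PRM1 (haploid germ cells) and FOXJ1 (motile cilia regulator) below. Replicate 3 is highest for 9 genes in the upper rows and lowest for the 14 genes in the bottom rows. PRM1 is high and FOXJ1 low in replicate 3, but FOXJ1 does not stand for all markers of multiciliated cells. Of the 15 listed, 4 were above and 4 below every other epididymis library in replicate 3. Their sum in replicate 3, 57.6 CPM, lay within the 53.2 to 70.5 CPM of the other epididymis libraries.

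Axoneme genes that the symbols did not select were taken from a list of other names. Of 44 listed, such as SPAG6 and TCTE1, 37 were in the files under these symbols and 36 were tested. Of these, 33 were higher in testis, 1 was higher in epididymis and 2 were not called, with a median log2 fold change of 3.30. TCTE1, also called DRC5, had 496 ± 24.3 CPM in testis and 2.53 ± 2.01 CPM in epididymis. CCDC39, the ruler protein that spaces the inner arms and spokes, was the exception, with 8.23 ± 2.83 CPM in testis and 13.6 ± 2.56 CPM in epididymis (log2 -0.72 ± 0.25, edgeR adjusted p = 0.0196). TTC25, a docking protein of outer arms, had 47.5 ± 25.6 CPM in testis and 44.8 ± 13.9 CPM in epididymis, and GAS8, or DRC4, had 39.8 ± 8.80 CPM in testis and 51.7 ± 6.90 CPM in epididymis, both not called. Of 16 tested genes of cytoplasmic dynein, transport dynein and dynactin, 5 were higher in testis, 6 were higher in epididymis and 5 were not called, with a median of -0.09. The heavy chain of cytoplasmic dynein, DYNC1H1, had 1381 ± 378 CPM in testis and 815 ± 112 CPM in epididymis. That of the dynein of intraflagellar transport, DYNC2H1, had 93.7 ± 22.1 CPM in testis and 9.30 ± 3.11 CPM in epididymis. Of 17 tested genes of intraflagellar transport, 11 were higher in testis, 1 was higher in epididymis and 5 were not called, with a median of 0.95.

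Within testis, replicate 4 lay outside the other libraries for many genes, among them several long heavy chains (lower) and several short axoneme genes (higher). Of 9 genes of at least 10000 bases in the files, 8 of them dynein heavy chains, 5 were lower in replicate 4 than in any other testis library and 2 were higher, where 45% of all genes of that length were lower and 34.9% higher. The median log2 ratio of replicate 4 to the median of the other 4 testis libraries was -0.41, against -0.08 for the 809 genes of that length with at least 1 CPM in testis. DNAH9 (log2 ratio -1.62), DNAH1 (-1.39) and DNAH17 (-1.21) were lowest, and DNAH7 was higher than in the others (59.2 CPM against 43.5 to 51.2 CPM). DNAH5 and DNAH6 lay within the range of the other testis libraries. Of 10 genes under 2000 bases, 0 were lower and 8 were higher than in every other testis library, with a median log2 ratio of 0.31. Of the 2952 genes of that length, 28.2% were lower and 51.8% higher, with a median of 0.28. From 2000 to under 5000 bases, 4 of 21 axoneme genes were lower and 12 higher (34.4% and 43% of all genes). From 5000 to under 10000 bases, 5 of 13 were lower and 5 higher (42.4% and 36.4% of all genes). Among the 53 genes the largest excess was that of RSPH1 (4505 bases), with 56.6 CPM in replicate 4, against 7.58 to 10.9 CPM in the rest. Haploid germ cell markers differed in the same library, with 13 of 21 above and 5 below every other testis library. PRM2 had 1464 CPM there, against 229 to 296 CPM, TNP1 2396 CPM, against 629 to 766 CPM, and OAZ3 923 CPM, against 2012 to 2365 CPM. Their part in the axoneme levels was not tested. Leaving out replicate 4 left 43 genes higher in testis and 4 higher in epididymis. With it as the only testis library, 38 were higher in testis and 0 in epididymis (edgeR; 1 in epididymis at an unadjusted p under 0.05). Its boar is the oldest in the file headers, at 17 months. It is also the only testis library with little signal recognition particle RNA, so age and library content cannot be told apart.

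**Figure D5:**
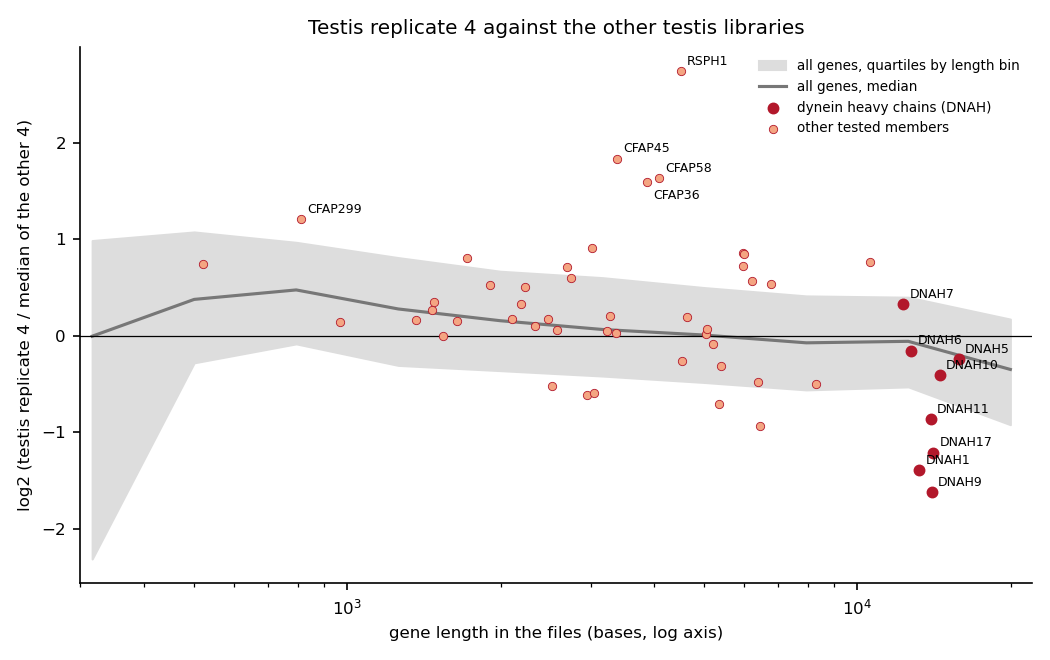
Log2 ratio of testis replicate 4 to the median of the other 4 testis libraries against gene length in the files (log axis), for the 53 tested genes. The grey line and band give the median and quartiles of all genes with at least 1 CPM in testis. Of 8 dynein heavy chains, 7 lie below 0, and RSPH1 stands highest at 2.74.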

How the data were processed

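RNA of testis and epididymis was sequenced in 5 short-read libraries per tissue; 2 pooled long-read samples were not analysed here. Each deposited file lists unnormalized counts for 1 library, by gene, beside the gene's length. The submitters' processing notes name cutadapt 3.0, STAR, featureCounts, Subread and Sscrofa 11.1; per the labels, poly(A) RNA was enriched. The strand setting is not given in the sources used here. Lengths (unit other) are those of the deposited files. The files hold 30640 rows, of which 15414 carry a symbol and 15226 an Ensembl identifier; the gene name table named 810 of the latter, and coordinates were used only to find overlapping RefSeq genes.

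CPM divides a count by the library total, and RPKM divides CPM by the length in kilobases. Counts were filtered with filterByExpr, scaled with TMM and tested with edgeR 4.0.16 (quasi-likelihood, robust, R 4.3.3) between the 5 testis and 5 epididymis libraries, with Benjamini-Hochberg adjustment over 17225 genes and a threshold of 0.05. Differences beyond 2-fold used edgeR's glmTreat. A gene was called kept in epididymis at 1 CPM or more in each library. The standard errors are approximate. Alternatives were DESeq2 1.42.0, its size factors, library totals, no filter, the boar as a block, leaving out libraries, and other thresholds for kept genes. Same-numbered libraries are taken to come from the same boar, from the numbers in the file headers. Their deviations from the tissue means correlated at 0.00867, 0.0893, 0.0111, 0.0481 and 0.0287 for replicates 1 to 5. Only for testis replicates 2 and 5 was the same-numbered epididymis library the one that correlated best. Nothing says that boars were housed or processed apart, so p-values measure the spread between these samples.

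The genes and lists were chosen with earlier results of these data known. Genes named with their values were, per structure, the 2 tested with the highest RPKM in testis, all those higher in epididymis or not called, the 8 highest in epididymis, the 2 largest and 2 smallest fold changes, and the outer arm heavy chains. Other genes, such as marker genes, CFAP161, CFAP36, DNAI2 and the table-named rows, were named after their values were seen. Of the 56 genes, 52 were placed on a chromosome and the span of 20 overlaps another RefSeq gene. DNAH9, DNAH17, DNAAF2, DRC3, DNAAF5, RSPH4A and RSPH6A are among these, so reads in shared parts cannot be told apart.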

Additional observations from a re-analysis of the deposited data

Results flagged for a closer look

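Of 60 groups of 5 libraries (30 named genes in each tissue), 20 held a library whose gap to its nearest neighbour exceeded 0.71 of the range. This is Dixon's critical value for 5, which chance alone exceeds in about 1 group in 20 if groups are independent. Groups that share libraries are not, and the same count over all genes was not made. Of all genes under 2000 bases, testis replicate 4 was below every other testis library for 28.2% and above for 51.8%. Of those of at least 10000 bases, it was below for 45% and above for 34.9%. The flags are therefore not read as particular to axoneme genes. The outlying library was testis replicate 4 in 13 cases, epididymis replicate 3 in 5, and epididymis replicates 2 and 4 in 1 each.

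Testis replicate 4 stood high for 10 genes. It held 496.5 CPM of TEKT2 (other testis libraries 367 to 397 CPM), 185 CPM of CFAP97 (94.2 to 109 CPM), 104.6 CPM of RSPH9 (92.4 to 95.8 CPM) and 95.5 CPM of CFAP97D1 (54.1 to 61.8 CPM). DRC1 stood at 83.2 CPM (41.9 to 53 CPM), CFAP44 at 64.5 CPM (37.0 to 39.8 CPM) and CFAP410 at 63.3 CPM (43.0 to 46.5 CPM). CFAP69 stood at 41.4 CPM (22.9 to 27.3 CPM), DNAL1 at 33.6 CPM (18.1 to 22 CPM) and CFAP299 at 13.8 CPM (4.93 to 6.35 CPM). It stood low for DNAH1, at 184 CPM (469 to 505 CPM), DRC7, at 110.2 CPM (159 to 176 CPM), and DNAH9, at 31.0 CPM (81.2 to 100 CPM).

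Epididymis replicate 3 stood high for DNAH17, at 7.70 CPM (other epididymis libraries 5.14 to 5.86 CPM), CFAP97D1, at 3.74 CPM (0.458 to 0.931 CPM), CFAP44, at 3.24 CPM (0.389 to 0.821 CPM), and RSPH9, at 2.19 CPM (0.219 to 0.667 CPM). It stood low for CFAP70, at 14.5 CPM (37.0 to 45.7 CPM). Epididymis replicate 4 stood high for DNAH5, at 11.9 CPM (1.46 to 4.05 CPM), and epididymis replicate 2 for DNAI1, at 1.64 CPM (0.410 to 0.723 CPM).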

How the results depend on the processing

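Of 510 log2 fold changes of the 30 named genes under other settings, 483 kept direction and side of the threshold, 7 (5 genes) lost a call, 12 (4 genes) gained one and 8 (4 genes) changed sign. Sign changed, with no call in either setting, for CFAP100 without testis replicate 4 (-0.01), without epididymis replicates 3 (-0.16), 4 (-0.0085) or 5 (-0.02) and without epididymis replicates 3 and 4 (-0.27), for CFAP20 with testis replicate 4 alone (0.24), for DNAH9 without epididymis replicate 5 (0.11) and for DNAL4 without epididymis replicates 3 and 4 (-0.0204). Leaving out 1 library gave -0.158 to 0.282 for CFAP100 and -0.671 to 0.109 for DNAH9. The cause was not tested. With only replicate 4 of testis kept, 6566 of all genes were called, and 0 axoneme genes were higher in epididymis, where that lone library was assumed to vary like the others. Without epididymis replicates 3 and 4, 4 were higher in epididymis. Leaving out 1 library gave 1 to 4 higher in epididymis, 43 to 44 higher in testis, 39 to 40 beyond 2-fold, 34 to 36 kept, a median log2 fold change of 3.48 to 3.89 and 12351 to 13701 calls over all genes. With no filter the median was 3.46, over more low genes. Kept genes numbered 17 at 5 CPM and 18 at 1 RPKM. With the boar as a replicate block, DNAH11 (adjusted p = 0.0595) and CFAP36 (0.0572) lost their calls and CFAP410 (0.0454) gained one, and no other named gene changed its call. DESeq2's size factors moved the median of all genes to 0.05, against -0.07. Without epididymis replicates 3 and 4, fold changes were over 1.5 times larger on the linear scale for genes such as the following, given as log2: CFAP65 (9.41), TEKT5 (9.22), TEKT2 (8.30), CFAP161 (7.23), TEKT3 (6.89) and DNAH6 (6.04), and CFAP36 was not called (adjusted p = 0.0532). With only replicate 4 of testis kept, CFAP46 was not called (log2 2.27, adjusted p = 0.0548). Counts near the floor limit what can be said of CFAP126, CFAP157 and CFAP73.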
